A study of Mus musculus with 9 samples.

Results

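Across the E13.5 mouse midbrain, 10 genes of the Notch pathway were read in 3 genotypes that carry a floxed Gpr161 gene. They were taken from the deposited table by gene symbol and are 3 receptors (Notch1, Notch2 and Notch3), 5 ligands (Dll1, Dll3, Dll4, Jag1 and Jag2) and 2 modulators (Lfng and Nrarp). Each was found once among the 27360 rows of the table, and all 10 were among the 14029 named genes that reached 1 cpm in 3 or more libraries. The floxed control was Gpr161f/f without Cre, the Cre control was Gpr161f/+;Wnt1-Cre, and the cKO was Gpr161f/f;Wnt1-Cre, whose sample titles spell the gene Gpt161. Each group had 3 libraries of poly-A RNA from dissected midbrain of C57BL/6 fetuses. Every group carried at least 1 floxed allele, and both Cre groups carried the Wnt1-Cre transgene, so no group was free of the floxed allele or carried Cre alone. Wnt1-Cre recombines in the dorsal neuroectoderm of the midbrain and in neural crest, so the dissected tissue could also hold cells in which the gene was not targeted. The labels do not say that the libraries came from separate litters, and p-values measure the spread between these libraries.

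Notch signalling passes between cells that touch. A Delta-like or Jagged ligand on one cell binds a Notch receptor on its neighbour, the receptor is cut by an ADAM protease and by gamma-secretase, and its intracellular domain moves to the nucleus, where it joins Rbpj and a Mastermind protein and switches on repressors of the Hes and Hey families. In the ventricular zone of the embryonic brain this holds radial glia as progenitors, while neighbouring cells with proneural factors make Delta-like ligands and go on to become neurons. Lfng, a Fringe glycosyltransferase, adds a sugar to the receptor and favours its activation by Delta-like over Jagged ligands, and Nrarp, a small ankyrin-repeat protein, is a target of the pathway that feeds back on the intracellular domain.

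Values are on the log2 scale of the deposited table, which the authors had normalized between libraries and which holds no read counts, so the depth is unknown. Gpr161, the targeted gene, was between 11.74 and 11.80 in the floxed control, between 11.77 and 11.96 in the Cre control and between 11.74 and 11.95 in the libraries labelled cKO (adjusted p = 0.223 and 0.998 against the floxed and the Cre control, limma with Benjamini-Hochberg adjustment). With 1 value per gene, the deleted part of the gene cannot be seen, so this value does not check the label, and cKO stands here for the libraries so labelled. Wnt1, whose transgene drives Cre, was between 9.08 and 9.25 in the floxed control, between 10.89 and 11.01 in the Cre control and between 10.57 and 10.80 in the cKO. Of 9 midbrain markers, 1 was higher and 2 were lower in the cKO against the floxed control (adjusted p under 0.05, limma). Against the Cre control 1 was higher and 1 lower, with 0 to 1 higher when each library was left out. Pou4f1 was 10.99 to 11.29, 11.01 to 11.29 and 10.41 to 10.56 in the floxed control, the Cre control and the cKO. Gata2 was 9.73 to 9.88, 9.74 to 9.79 and 9.98 to 10.08 in the same order. The midbrain markers Otx2 and En1 lay between 10.50 and 11.58 in every library, while the forebrain marker Emx1 was under the expression minimum. Of 6 forebrain and hindbrain markers 4 passed it, and Hoxb2, a hindbrain gene, was between 6.16 and 7.25 in the floxed control, between 5.52 and 6.06 in the Cre control and between 5.71 and 5.85 in the cKO. Of these 4 markers, 3 were lower in the cKO against the floxed control (adjusted p under 0.05, limma), at a median of -0.87. Against the Cre control 0 passed, and between the controls 0 passed by limma, at a median of -0.89 for the Cre control against the floxed control. In bulk tissue, fewer cells of a type and less RNA per cell cannot be told apart.

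Notch3, Dll1, Dll3, Jag1, Lfng and Nrarp were higher in each cKO library than in any of the 6 control libraries. These are 6 of the 10 genes, against 14.7% of the genes tested. With an adjusted p under 0.05, 5 of the 10 rose in the cKO against the floxed control (Notch3, Dll3, Jag1, Lfng and Nrarp), where 19.5% of all genes were called higher and 18.8% lower. Against the Cre control 4 of the 10 rose (Notch3, Jag1, Lfng and Nrarp), where 4.86% were called higher and 4.85% lower. With each library centred on its median, the calls against the Cre control over all genes were 532 higher and 831 lower, in place of 682 and 681, and the calls of the 10 genes were 4 higher and 0 lower as before. The 4 genes were called higher against each control, as were 4.68% of all genes, but the 2 comparisons share the cKO libraries. By limma, 0 of the 10 genes were called lower in either comparison, and in either direction 7 had an unadjusted p under 0.05 against the floxed control (48.1% of all genes) and 6 against the Cre control (29.3%). The changes were modest. None of the 10 passed a fold change of 1.5 together with the adjusted p, as 2.92% and 0.563% of all genes did against the floxed and the Cre control.

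**Figure D1:**
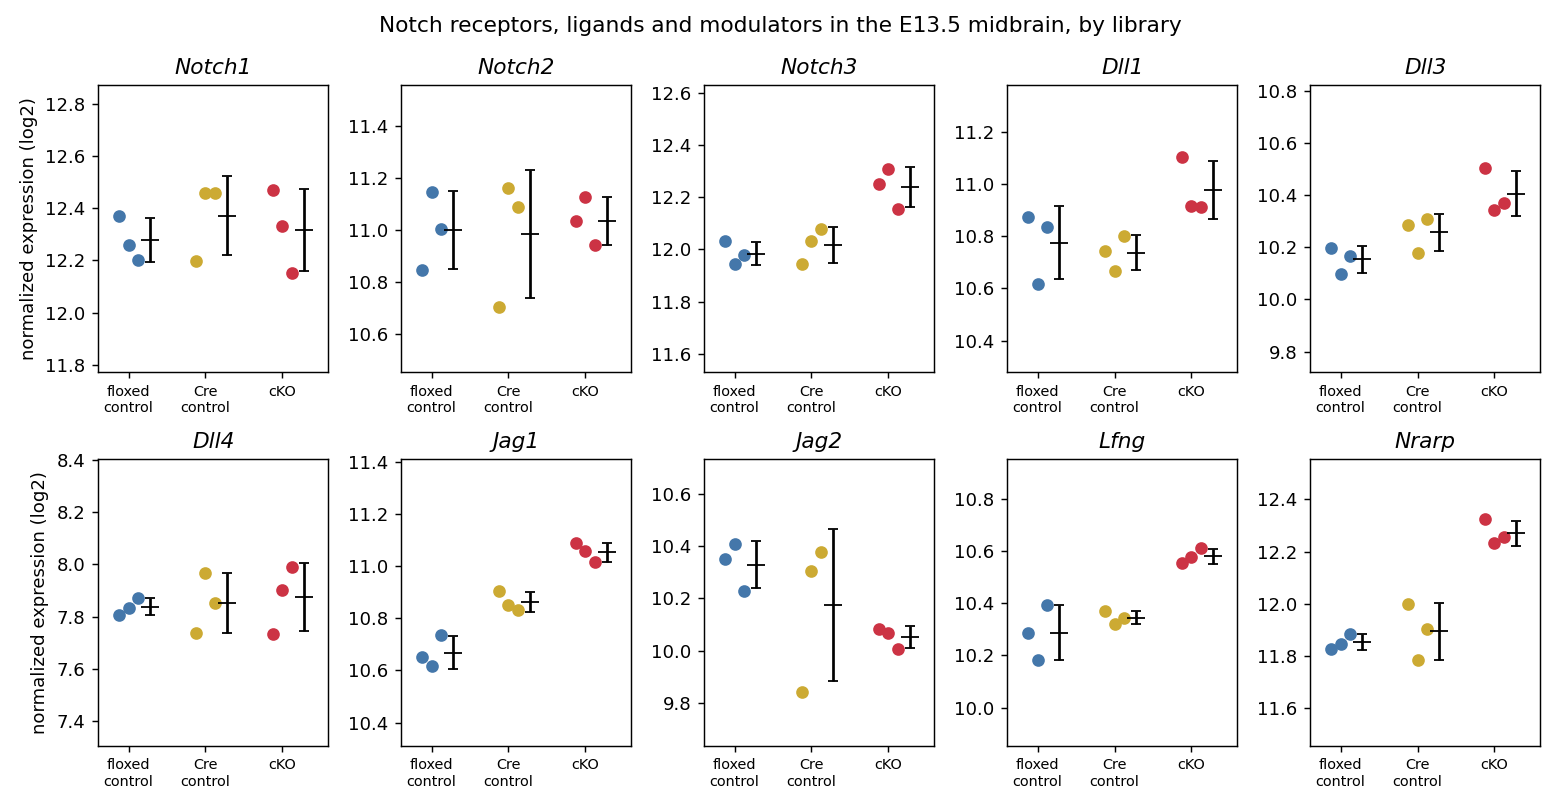
Normalized expression (log2) of the 10 genes in each of the 9 libraries, 1 panel per gene, with points for libraries and bars for the mean and SD of each genotype (n = 3). Each panel spans the same height on the log2 scale but does not start at 0. The cKO points of Notch3, Dll1, Dll3, Jag1, Lfng and Nrarp lie above all 6 control points, as Nrarp does at 12.23 to 12.32 against controls of 11.78 to 12.001, and the lowest point of Jag2, 9.84, is Cre control replicate 1.

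The sequences before the start sites of the 4 genes called higher against each control are shown because these genes moved together. They run 5′ to 3′ on the strand of the gene, come from the RefSeq promoter table on GRCm38.p6, and are trimmed where a GENCODE exon begins. Capitals mark matches on either strand to TGGGAA, the core of the Rbpj recognition sequence, and to the E-box CANNTG, where N is any base. The E-boxes in these stretches are CAGCTG and CACGTG, the first of which proneural bHLH proteins bind and the second Hes and Hey proteins among others. Positions are counted from the start site.
Nrarp, chr2:25180508-25180757, plus strand: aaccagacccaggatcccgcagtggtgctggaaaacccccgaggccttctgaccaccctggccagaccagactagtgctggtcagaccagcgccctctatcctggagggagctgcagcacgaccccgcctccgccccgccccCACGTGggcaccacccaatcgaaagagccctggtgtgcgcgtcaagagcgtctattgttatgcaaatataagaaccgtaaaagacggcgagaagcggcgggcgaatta
Lfng, chr5:140607091-140607319, plus strand: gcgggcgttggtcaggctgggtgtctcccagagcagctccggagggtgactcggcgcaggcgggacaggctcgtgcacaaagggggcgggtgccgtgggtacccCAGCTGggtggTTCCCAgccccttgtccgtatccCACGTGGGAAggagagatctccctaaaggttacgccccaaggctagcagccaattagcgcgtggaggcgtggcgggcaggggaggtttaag
Jag1, chr2:137116645-137116770, minus strand: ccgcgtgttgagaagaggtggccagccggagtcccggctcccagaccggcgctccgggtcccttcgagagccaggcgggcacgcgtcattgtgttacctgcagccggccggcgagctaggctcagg
Notch3, chr17:32166891-32167140, minus strand: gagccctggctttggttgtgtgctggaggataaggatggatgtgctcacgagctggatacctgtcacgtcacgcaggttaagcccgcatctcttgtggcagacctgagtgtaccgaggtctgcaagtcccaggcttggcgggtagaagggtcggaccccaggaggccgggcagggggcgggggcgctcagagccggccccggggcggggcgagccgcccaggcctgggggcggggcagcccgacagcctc

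Within the 250 bases before the start, TGGGAA was found for Lfng at -108 and, as TTCCCA, at -135, and for none of the other 9 genes, in a set where 21.6% of 32851 RefSeq promoters held it. The longer form GTGGGAA, in 5.42% of promoters, stood at -109 of Lfng and shares bases with its CACGTG at -112. CACGTG, read off from the CANNTG matches, was also found at -108 of Nrarp, and its share of all promoters was not counted. CAGCTG, in 4271 of the 32851 promoters, was found for Lfng at -146, Jag1 at -82 (outside the printed stretch, since an annotated exon covers it), Dll1 at -132 and Dll3 at -7. The general E-box CANNTG was in 66.2% of promoters and in those of 5 genes (Dll1, Dll3, Jag1, Lfng and Nrarp), and the Gli sequence TGGGTGGTC, in 0.225% of promoters, was in none of the 10. No match to these letters lay in the printed stretches of Notch3 and Jag1. These are matches of letters and do not show binding.

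Nrarp (chromosome 2, 25180758 to 25183339, plus strand, GRCm38) had the largest estimated rise of the 10 genes against each control. Its values were 11.83, 11.85 and 11.89 in the floxed control, 12.001, 11.78 and 11.90 in the Cre control and 12.32, 12.23 and 12.26 in the cKO. The lowest cKO library stood 0.23 above the highest control library, which was Cre control replicate 1. On the log2 scale the cKO was 0.42 above the floxed control (SE 0.054, adjusted p = 7.02e-04, limma) and 0.37 above the Cre control (SE 0.054, adjusted p = 0.00693, limma), or 33.5% and 29.6% more on the linear scale. It passed the threshold against both controls in each of the 9 fits that left out 1 library, with log2 fold changes from 0.39 to 0.44 and from 0.32 to 0.43. The Cre control differed from the floxed control by 0.04 (95% interval -0.08 to 0.16). Of the exon bases of Nrarp, 79.4% are shared with Gm38287, an antisense gene on the other strand, and as the library kit does not mark strand the reads of both cannot be told apart.

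Lfng (chromosome 5, 140607320 to 140615545, plus strand), the Fringe enzyme, was 10.28, 10.18 and 10.39 in the floxed control, 10.37, 10.32 and 10.34 in the Cre control and 10.55, 10.58 and 10.61 in the cKO. The cKO libraries were close to each other and separate from both control groups, which overlapped. On the log2 scale the cKO was 0.29 above the floxed control (SE 0.053, adjusted p = 0.00257, limma) and 0.23 above the Cre control (SE 0.053, adjusted p = 0.0276, limma). The call against the floxed control held whichever library was left out. That against the Cre control was lost without replicate 2 or 3 of the Cre control (adjusted p = 0.0732 and 0.0864, limma) and without any 1 of the cKO replicates (0.0785, 0.0710 and 0.0684 for replicates 1, 2 and 3), at log2 fold changes between 0.22 and 0.25. The summed linear value of Nrarp and Lfng, 2 to the power of each log2 value, was 4845 to 5130 in the floxed control, 4805 to 5424 in the Cre control and 6334 to 6628 in the cKO.

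Of the receptors, Notch3 rose and the values of Notch1 and Notch2 did not separate the groups. Notch3 (chromosome 17, 32120820 to 32166852, minus strand), which in the brain is made by ventricular zone progenitors and by the mural cells of vessels, was 12.03, 11.94 and 11.98 in the floxed control, 11.94, 12.03 and 12.08 in the Cre control and 12.25, 12.31 and 12.16 in the cKO. The control groups overlapped and the lowest cKO library lay above both. On the log2 scale the cKO was 0.25 above the floxed control (SE 0.051, adjusted p = 0.00400, limma) and 0.22 above the Cre control (SE 0.051, adjusted p = 0.0294, limma). The first call held in the 9 fits that left out 1 library. The second was lost without floxed control replicate 3 (adjusted p = 0.0501, limma), without replicate 2 or 3 of the Cre control (0.0639 and 0.0548) and without replicate 1 or 2 of the cKO (0.107 and 0.0900), with the log2 fold change between 0.18 and 0.26. Of 10 mural cell markers, 4 rose against the floxed control, among them the contractile genes Acta2 (1.23) and Tagln (1.01), while Pdgfrb differed by 0.13 and Rgs5 by -0.05, and neither passed. Acta2 was 10.53, 10.71 and 9.15 in the floxed control, whose replicate 3 stood apart, and without that library the differences were 0.74 for Acta2 and 0.75 for Tagln (adjusted p = 0.0210 and 0.00303, limma), while Acta2 did not pass without cKO replicate 1 (adjusted p = 0.0710, limma). Against the Cre control 0 of the 10 passed by limma, Acta2 at 0.47 and Tagln at 0.54 included. Their summed linear value was 5504 to 7155 in the floxed control, 6117 to 7773 in the Cre control and 8261 to 9101 in the cKO, and their part in the Notch3 result was not tested.

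Notch1 (chromosome 2, 26457903 to 26516663, minus strand), the main receptor of neural progenitors, was 12.37, 12.26 and 12.20 in the floxed control, 12.20, 12.46 and 12.46 in the Cre control and 12.47, 12.33 and 12.15 in the cKO. The 3 groups overlapped. The difference of the cKO was 0.04 against the floxed control (95% interval -0.16 to 0.24, adjusted p = 0.755, limma) and -0.05 against the Cre control (95% interval -0.26 to 0.15, adjusted p = 0.723, limma). Notch2 (chromosome 3, 98013527 to 98150361, plus strand), a receptor of progenitors and of mesenchymal cells, ranged from 10.85 to 11.15, from 10.70 to 11.16 and from 10.94 to 11.13 in the floxed control, the Cre control and the cKO. Its difference was 0.03 (95% interval -0.22 to 0.29) against the floxed control and 0.05 (95% interval -0.20 to 0.30) against the Cre control. In both comparisons the change of Notch3 lies within the interval of Notch2 and above that of Notch1. Within a library Notch3 minus Notch1 averaged -0.29 (floxed control), -0.35 (Cre control) and -0.079 (cKO), so the values came closer together by 0.24 in the cKO compared with the 6 control libraries, and the groups did not overlap (two-sided exact permutation test, p = 0.0119, the smallest that 84 arrangements allow, adjusted p = 0.0952 over 8 ratios). Nrarp minus Notch1 was -0.42, -0.48 and -0.048 in the same order, higher by 0.40 in the cKO than in the 6 controls (exact permutation p = 0.0238, adjusted p = 0.0952), and without Cre control replicate 1 both had an adjusted p of 0.0476 by the exact permutation test.

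Of the Delta-like ligands, Dll3 rose against the floxed control, Dll1 came close to the threshold and Dll4 overlapped between groups. Dll1 (chromosome 17, 15367354 to 15376872, minus strand), the ligand shown by cells that leave the ventricular zone, was 10.87, 10.62 and 10.84 in the floxed control, 10.74, 10.67 and 10.80 in the Cre control and 11.10, 10.92 and 10.91 in the cKO. Every cKO library was above every control library, by a gap of 0.04. On the log2 scale the cKO was 0.20 above the floxed control (SE 0.076, adjusted p = 0.0586, limma) and 0.24 above the Cre control (SE 0.076, adjusted p = 0.0724, limma), so neither passed. The first passed once floxed control replicate 1 was left out (adjusted p = 0.0489, limma) and the second once floxed control replicate 2 was (0.0467), and both passed with the replicate number as a block (0.0209 and 0.0308). The difference against the floxed control was 0.12 (adjusted p = 0.189, limma) without floxed control replicate 2 and 0.14 (adjusted p = 0.208, limma) without cKO replicate 1, and the one against the Cre control lay between 0.18 and 0.27 when each library was left out. Of the exon bases of Dll1, 20.5% are shared with A930024N18Rik on the other strand, and reads of both cannot be told apart. Notch1, Notch2, Notch3 and Dll4 share between 2.91% and 7.50% of their exon bases with each gene that overlaps them.

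Dll3 (chromosome 7, 28293553 to 28302238, minus strand), a Delta-like protein that does not activate receptors on neighbouring cells and can hold back signalling in its own cell, was 10.20, 10.10 and 10.17 in the floxed control, 10.29, 10.18 and 10.31 in the Cre control and 10.50, 10.34 and 10.37 in the cKO. The cKO libraries lay above the others, and the Cre control overlapped with the floxed control. On the log2 scale the cKO was 0.25 above the floxed control (SE 0.056, adjusted p = 0.00669, limma), in a call that held whichever library was left out, and 0.15 above the Cre control (SE 0.056, adjusted p = 0.114, limma). Dll4 (chromosome 2, 119325784 to 119335962, plus strand), a ligand of vessel endothelium that some neural progenitors also make, ranged from 7.81 to 7.87, from 7.74 to 7.97 and from 7.73 to 7.99 in the floxed control, the Cre control and the cKO. The groups overlapped, with differences of 0.04 (95% interval -0.14 to 0.21) and 0.02 (95% interval -0.15 to 0.20). Of 12 endothelial markers, 6 rose against the floxed control, Eng (0.49) and Flt1 (0.37) among them, where 19.5% of all genes were called higher. The count of 6 was 2 to 7 in limma fits, added after the data were seen, that left out each library in turn. Against the Cre control 0 of the 12 markers passed by limma, with Eng at 0.26 and Flt1 at 0.16. Their summed linear value was 7530 to 9552, 8191 to 10341 and 9928 to 10631 in the 3 groups in the same order.

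Jag1 rose against both controls, and Jag2 had lower values without passing. Jag1 (chromosome 2, 137081456 to 137116644, minus strand), a ligand of progenitor domains and of vessels, was 10.65, 10.62 and 10.74 in the floxed control, 10.91, 10.85 and 10.83 in the Cre control and 11.09, 11.06 and 11.02 in the cKO. The groups did not overlap, with the Cre control between the others, and 10.7% of all genes had each Cre control library above each floxed control library. On the log2 scale the cKO was 0.39 above the floxed control (SE 0.044, adjusted p = 4.45e-04, limma), in a call that held whichever library was left out, and 0.19 above the Cre control (SE 0.044, adjusted p = 0.0294, limma). The second was lost without replicate 2 or 3 of the Cre control (adjusted p = 0.0739 and 0.101, limma) and without replicate 1 or 2 of the cKO (0.116 and 0.0791), at log2 fold changes of 0.17 to 0.19. Between the controls, Jag1 was higher by 0.20 in the Cre control (unadjusted p = 0.00116, adjusted p = 0.145, limma), and the step from Cre control to cKO differed from the step from floxed to Cre control by -0.01 (95% interval -0.17 to 0.16).

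Jag2 (chromosome 12, 112907819 to 112929776, minus strand), a ligand of differentiating cells in the neural tube, was the gene of the 10 with a negative difference against both controls. It was 10.35, 10.41 and 10.23 in the floxed control, 9.84, 10.31 and 10.38 in the Cre control and 10.08, 10.07 and 10.005 in the cKO. The cKO lay below the floxed control, as did 27.3% of all genes, and below Cre control replicates 2 and 3, while Cre control replicate 1 was the lowest of the 9 libraries. The difference was -0.28 against the floxed control (SE 0.12, adjusted p = 0.0855, limma) and -0.12 against the Cre control (SE 0.12, adjusted p = 0.514, 95% interval -0.38 to 0.14, limma). Without Cre control replicate 1 both passed, at -0.28 (adjusted p = 0.00213) and -0.29 (adjusted p = 0.00883). The difference from the Cre control was -0.057 (adjusted p = 0.809, limma) without replicate 2 of that group and -0.022 (adjusted p = 0.933, limma) without replicate 3. Cre control replicate 1 was also the lowest of its group for Notch1, Notch2, Notch3 and Dll4, and the highest for Jag1, Lfng and Nrarp. Within a library Jag2 minus Jag1 differed by -0.49 between the cKO and the 6 control libraries (two-sided exact permutation test over 84 arrangements, p = 0.0714, adjusted p = 0.143 over 8 ratios), and without Cre control replicate 1 by -0.60 (exact permutation test, adjusted p = 0.0476).

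**Figure D2:**
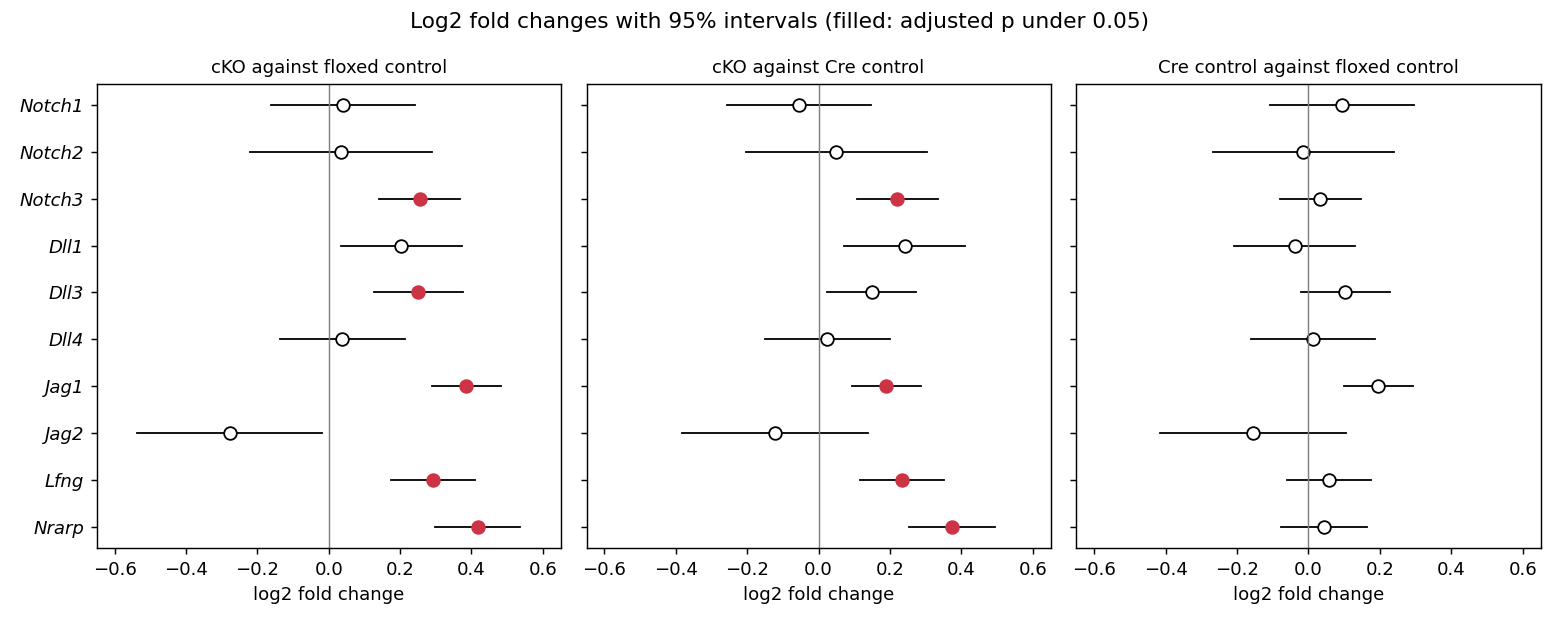
Log2 fold changes of the 10 genes (points) with 95% intervals (lines) in 3 comparisons, 1 panel each, where filled points have an adjusted p under 0.05 by limma. The filled points are 5 in the first panel, from 0.25 for Dll3 and Notch3 to 0.42 for Nrarp, 4 in the second, from 0.19 for Jag1 to 0.37 for Nrarp, and 0 in the third.

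The controls differ by the Wnt1-Cre transgene and 1 floxed allele. By design Cre can delete the floxed allele that the Cre control carries, so their difference is not that of the transgene alone. Between the controls 0 of the 10 genes were called by limma, against 0.057% of all genes, and Jag1 alone had an unadjusted p under 0.05 (17.5% of all genes). The differences of the other 9 genes ran from -0.15 for Jag2 to 0.10 for Dll3. The step from Cre control to cKO was then set against the step from floxed to Cre control. By limma this difference of steps was called for 0 of the 10 genes and for 0.057% of all genes, and Nrarp had the one unadjusted p under 0.05 (6.44% of all genes), with a difference of 0.33. It was 0.28 for Dll1, 0.19 for Notch3 and 0.18 for Lfng, and the adjusted p (limma) was 0.522 for Nrarp and between 0.788 and 0.821 for these. When each library was left out, it ran from 0.22 to 0.44 for Nrarp, from 0.21 to 0.36 for Dll1, from 0.11 to 0.25 for Notch3 and from 0.12 to 0.23 for Lfng, lowest for Nrarp without Cre control replicate 2 and for Notch3 without Cre control replicate 1. Both steps share the Cre control libraries.

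Per kilobase of the longest coding transcript, on a log2 scale of levels, Nrarp was the highest of the 10 genes and Dll4 the lowest in every genotype. In the floxed control Nrarp stood at 10.48 ± 0.031 (SD, n = 3), followed by Lfng at 9.08 ± 0.11 (SD, n = 3), Notch1 at 9.03 ± 0.086 (SD, n = 3), Notch3 at 8.98 ± 0.045 (SD, n = 3), Dll1 at 8.93 ± 0.14 (SD, n = 3) and Dll3 at 8.77 ± 0.051 (SD, n = 3). From Lfng to Dll3 each gene overlapped with its neighbour in this order, so their order is not fixed by these libraries. Jag1 at 8.18, Jag2 at 7.98, Notch2 at 7.61 and Dll4 at 5.93 followed as separate steps. In the cKO, Lfng at 9.37 stood apart from the next gene, Notch3 at 9.24 and Dll1 at 9.14 came before Notch1 at 9.07 with overlapping libraries, and Jag2 at 7.70 overlapped with Notch2 at 7.64. The order depends on the length used, as the mean over coding transcripts puts Notch1, Notch3 and Dll1 before Lfng.

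**Figure D3:**
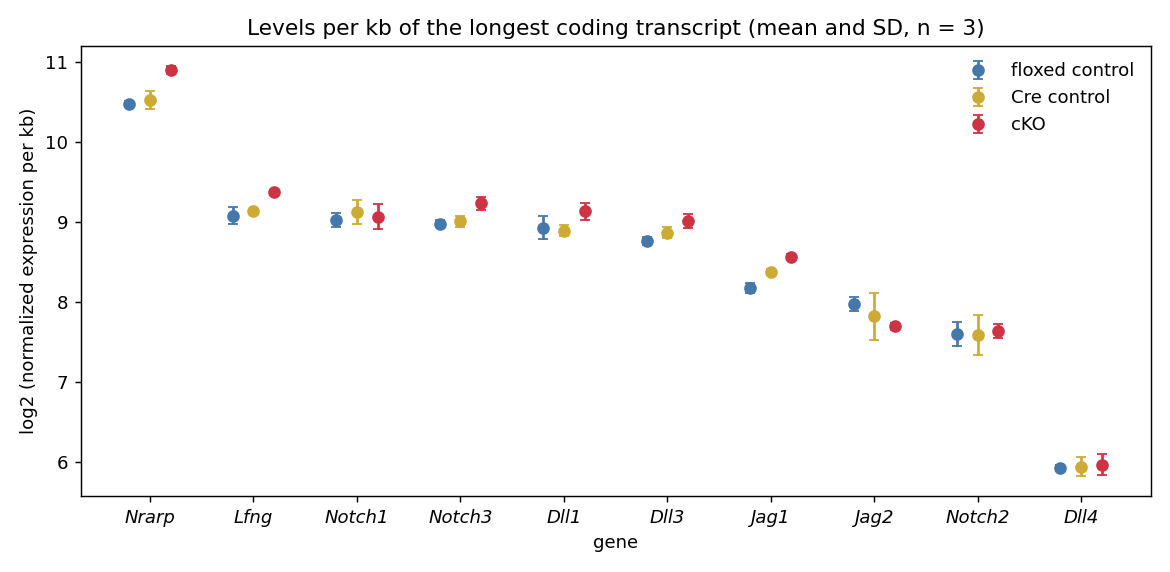
Levels per kilobase of the longest coding transcript (log2) of the 10 genes in the 3 genotypes, with points for means and bars for the SD (n = 3), in the order of the floxed control. Nrarp lies at 10.48, 10.53 and 10.90 in the floxed control, the Cre control and the cKO, and Dll4 at 5.93, 5.95 and 5.97.

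The other genes of the pathway, grouped by role, were read in the same fits. Of 7 target repressors, 6 rose against the floxed control and Id4, an inhibitor of bHLH factors, fell by 0.41, with a median of 0.32 against 0.01 over all genes. Hes1 (0.29) and Hes5 (0.34), the effectors that hold radial glia as progenitors, Heyl (0.38), Hey2 (0.32) and Hey1 (0.16) rose, as did Hes3 (1.52), a Hes gene of the midbrain and its boundary with the hindbrain. The study picked Hes3 from these samples, so it is not independent evidence. Against the Cre control Hes3 (0.99) and Hey2 (0.30) rose and Id4 fell by 0.34, while Hes1 at 0.15 and Hes5 at 0.21 did not pass (adjusted p = 0.114 and 0.148, limma), and the list's median was 0.15. The count of 2 was 1 without floxed control replicate 3, without replicate 2 or 3 of the Cre control, and without any 1 of the cKO replicates, and the call of Id4 was lost without Cre control replicate 3 and without replicate 1 or 2 of the cKO.

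Of 8 other receptors, ligands and Fringes, Mfng rose by 0.38 and 4 fell against the floxed control. These were Dner (fell by 0.62) and Cntn1 (fell by 0.54), membrane proteins of neurons that have been described as Notch ligands, Dlk2 (fell by 0.49), a non-canonical ligand, and Rfng (fell by 0.21), so Rfng fell where Lfng and Mfng rose. Against the Cre control Cntn1 fell by 0.35 and no other passed, and without Cre control replicate 1 there were 4 lower and 1 higher. Notch4, a receptor of endothelium, differed by -0.15 and -0.09 from the floxed and the Cre control and did not pass. Of 14 genes of ligand endocytosis and receptor turnover, 4 fell against the floxed control, the ubiquitin ligases Dtx1 (fell by 0.62), Neurl1b (fell by 0.36), Neurl1a (fell by 0.30) and Dtx3 (fell by 0.24), while Mib1, the ligase that Delta ligands need in progenitors, differed by 0.04. Neurl1b was the one called against the Cre control (fell by 0.24), where the count was 3 without Cre control replicate 1 and 0 without replicate 1 or 3 of the floxed control, replicate 2 or 3 of the Cre control or any 1 of the cKO replicates.

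Of 11 genes of the nuclear complex, 4 rose against the floxed control, among them Hdac1 (0.31), Maml1 (0.18) and Maml2 (0.15), a count that was 2 without floxed control replicate 3 and 1 without cKO replicate 2. Rbpj itself differed by 1.3e-04 and 0.03 from the floxed and the Cre control. Hdac1 was called against the Cre control as well (0.19), except without replicate 2 or 3 of the Cre control and without replicate 1 or 2 of the cKO. Of 12 genes of receptor maturation and cleavage, Furin, the convertase that cuts the receptor in the secretory path, rose by 0.37 and Aph1b fell by 0.22 against the floxed control, and 0 passed against the Cre control by limma, where the values lay between -0.15 and 0.14. Between the controls Furin differed by 0.39, the Cre control being higher (adjusted p = 0.0755, limma) and it differed by -0.02 between the cKO and the Cre control. Of 10 proneural and commitment genes, Btg2 (0.50), Neurog2 (0.37), Neurog1 (0.35) and Gadd45g (0.32) rose and Atoh1 (fell by 0.43) and Neurod1 (fell by 0.22) fell against the floxed control, and the 2 lower calls were 0 without floxed control replicate 3 and without replicate 2 or 3 of the cKO. Atoh1 differed by -0.42 between the controls (adjusted p = 0.188, limma) and by -0.0077 between the cKO and the Cre control. Btg2 rose against the Cre control (0.27), a call lost without Cre control replicate 3 or any 1 of the cKO replicates.

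Markers of several cell types also differed between the groups. Of 12 radial glia and progenitor markers, 6 rose against the floxed control, among them Nes (0.50), Sox1 (0.44) and Sox2 (0.29), and 2 fell, the dorsal progenitor genes Pax3 (fell by 0.37) and Pax7 (fell by 0.48). The count of 2 was 1 without floxed control replicate 1 or cKO replicate 2. In the other comparison, with the Cre control, 5 rose, with Nes at 0.45, Sox1 at 0.41 and Sox2 at 0.26, while Pax3 at -0.30 and Pax7 at -0.32 did not pass. Their summed linear value was 88146 to 92780 in the floxed control, 87965 to 94950 in the Cre control and 100738 to 104282 in the cKO. Of 10 markers of cycling cells, 10 rose relative to the floxed control and 6 relative to the Cre control, with sums of 35404 to 38067, 39882 to 44711 and 45936 to 54316. Of 12 neuron markers, 12 and 4 fell in the same comparisons, with sums of 156417 to 169676, 123227 to 151202 and 109228 to 122819. Of 8 mesenchyme markers 7 rose against the floxed control and 0 passed against the Cre control, of 8 erythroid markers 6 and 3 rose in these comparisons, and of 7 microglia markers 0 passed in either comparison by limma. The mesenchyme sums were 29068 to 53167, 37111 to 61668 and 62933 to 65534, and the erythroid sums 151655 to 257704, 182514 to 209983 and 236712 to 457951, in the same order of groups. Floxed control replicate 3 stood apart as the lowest library for the mesenchyme gene Twist1, at 8.80 against 9.72 and 9.91 in its group, and without it 4 mesenchyme and 3 erythroid markers rose against the floxed control. By limma, in fits added after the data were seen, leaving out each library in turn gave 3 to 8 mesenchyme and 1 to 8 erythroid markers called higher in that comparison. Relative to the Cre control it gave 2 to 6 progenitor and 1 to 8 cycling markers higher, 0 to 5 erythroid markers higher and 0 to 8 neuron markers lower. Without Cre control replicate 2 or 3 or without cKO replicate 1, the neuron and the erythroid counts in that comparison were both 0 by limma. The medians against the floxed control were 0.23 for the progenitor list, 0.44 for the cycling list and -0.51 for the neuron list, beside 0.04 for the 3 receptors, 0.20 for the 5 ligands and 0.35 for the 2 modulators. What part these cells have in the values of the 10 genes was not tested.

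**Figure D4:**
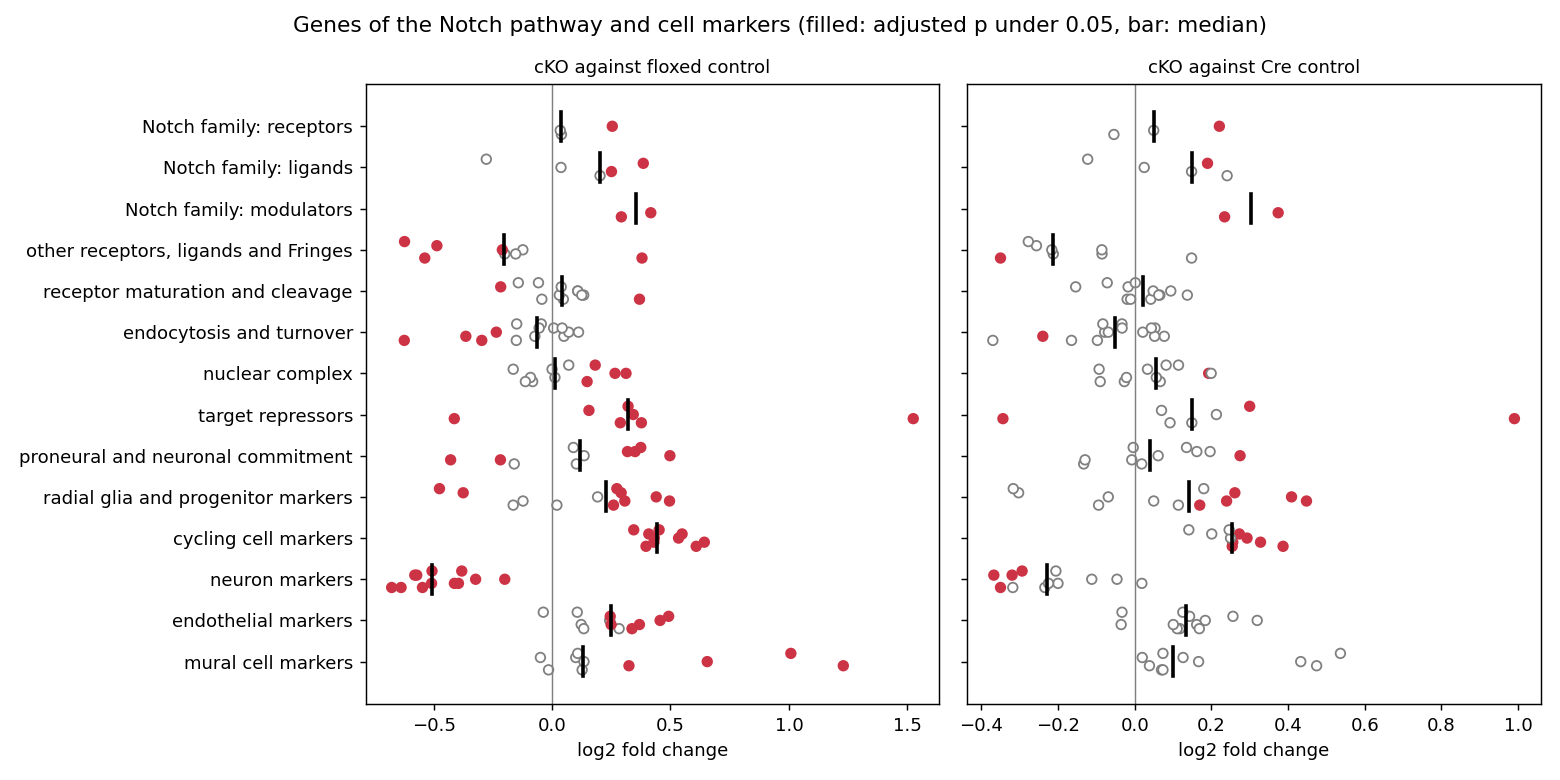
Log2 fold changes of the 10 genes by role, of other pathway genes and of cell markers (1 point per gene), in the cKO compared with the floxed control (left) or the Cre control (right). Filled points have an adjusted p under 0.05 by limma and bars give the median of each list, such as 0.32 and 0.15 for the target repressors and -0.51 and -0.23 for the neuron markers.

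Over the 9 libraries, the 6 genes that were higher in the cKO varied together, with Pearson's r between 0.66 and 0.91 for each pair, as between Lfng and Nrarp (0.91) and between Jag1 and Lfng (0.91). Notch1 and Nrarp had an r of -0.11, and Jag2 and Jag1 one of -0.71. These describe 9 libraries that share the genotype groups, so the difference between genotypes is part of each value.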

How the data were processed

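Poly-A RNA from dissected E13.5 midbrain was sequenced in 9 libraries, 3 per genotype. The authors deposited 1 table of normalized log2 values. The submitters' notes name FastQC 0.10.1, kallisto 0.46.1, DESeq2 and the build mm10 without their roles, and the transformation is not given in the sources used here. The median SD within genotype was 0.0036 for means of -3 to 0, 0.031 for means of 0 to 5 and 0.061 to 0.090 for means between 5 and 13.

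Named rows with at least 1 cpm, taken from the linear values, in 3 or more libraries were kept (14029 genes). A mean per genotype was fitted over the 9 libraries with limma 3.58.1 in R 4.3.3 (eBayes with a trend, two-sided, Benjamini-Hochberg over all genes tested), tested on simulated data. A call had an adjusted p under 0.05. Ratios within libraries were compared by exact permutation over all arrangements, written in Python 3.11.15. Replicate numbers were not used as pairs. The 10 genes and the lists were chosen with earlier results of these data known. Named are the 10 genes, list genes past the adjusted p, Gpr161, Wnt1 and the 3 genes most correlated with each of the 10. Notch4, Mib1, Rbpj, Pdgfrb, Rgs5, Twist1, Hoxb2 and the region markers were named outside the rule, with their values already seen. Positions are from GENCODE M21 on GRCm38 and start-site sequences from RefSeq. Protein sequences, and levels of Gm38287 and A930024N18Rik, were not analysed here, and the values of some list genes are not reported here.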

Additional observations from a re-analysis of the deposited data

How the results depend on the processing

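In the cKO against the floxed control, the count of genes called higher was 5 or 6 under every alternative but the fold limit of 1.5, under which it was 0 against each control. Genes called lower were 1 (Jag2) with only the 6 libraries compared, with limma arrayWeights and without Cre control replicate 1 (range 0 to 1 over the libraries left out). Of all genes, 3017, 3281 and 3169 were called lower in these fits in the same order, in place of 2642 in the main fit. Against the Cre control, the count called higher was 2 (Lfng and Nrarp) with only the 6 libraries compared and 1 to 5 when each library was left out, and Nrarp passed in each of those 9 fits. The count was 1 without replicate 2 or 3 of the Cre control and without replicate 1 or 2 of the cKO. In the same order, these fits called 329, 144, 140 and 228 of the 14029 genes higher, in place of 682 in the main fit. With only the 6 libraries compared, 225 were called higher. Jag2 was called lower against the Cre control with arrayWeights, a count of 1, and without Cre control replicate 1 (range 0 to 1). Of all genes, 2037 and 1759 were called lower in these fits, in place of 681 in the main fit. With the 6 controls as 1 group, 6 of the 10 genes were called higher, as were 2069 of the 14029 genes tested. The cause of these shifts was not tested.

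Signs changed for values near 0. Leaving out libraries gave, against the floxed control, -0.036 to 0.12 for Notch1, -0.041 to 0.11 for Notch2 and -0.020 to 0.11 for Dll4, and against the Cre control -0.14 to 0.028 for Notch1, -0.091 to 0.14 for Notch2 and -0.033 to 0.095 for Dll4. Between the controls it gave -0.10 to 0.13 for Notch2, -0.12 to 0.011 for Dll1, -0.044 to 0.071 for Dll4, -0.26 to 0.011 for Jag2 and -0.0100 to 0.099 for Nrarp. For the difference of steps it gave -0.040 to 0.037 for Jag1. With arrayWeights, Notch2 was -0.029 against the Cre control and 0.093 between the controls, Jag2 was 0.0068 between the controls, and the difference of steps of Jag1 was 0.044. With quantile normalization Dll4 was -0.0092 between the controls. Of the 8 ratios, 0 passed the adjustment, and 3 did without Cre control replicate 1 (range 0 to 3), which were Notch3 and Nrarp over Notch1 and Jag2 over Jag1. Against the Cre control alone, Jag1 minus Dll1 was -0.051 and Lfng minus Dll1 -0.0066, and against the floxed control alone Notch2 minus Notch1 was -0.0050 and Dll3 minus Dll1 0.048. Left-out libraries gave -0.0058 to 0.12 for Lfng minus Dll1. By mean transcript length, levels per kilobase in the cKO were 9.996 for Notch1, 10.11 for Notch3, 9.87 for Dll1 and 8.50 for Jag2.

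With the replicate number as a block, 6 and 5 genes were called higher against the floxed and the Cre control, since Dll1 passed. Of the 14029 genes tested, 2898 and 846 were called higher in these fits. After the genotype means were removed, libraries with the same number correlated between -0.027 and 0.26, with a median of 0.10 (9 pairs). Those with different numbers correlated between -0.28 and 0.16, with a median of -0.053 (18 pairs). The main fits did not use the numbers as a pairing, and whether libraries of the same number share a factor was not tested. Of 576 counts recomputed for the pathway lists, 507 stayed within 1.5 times and 69 did not. With no read counts, no limit from depth could be given.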

Other observations

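The genes whose values ran most like each of the 10 over the 9 libraries were read off as a description, 3 for each. For Nrarp they were Fam181b (Pearson's r 0.99), Limd2 (0.99) and Ddt (0.99), for Jag1 Raver2 (0.99), E2f4 (0.98) and Plk1 (0.98), and for Lfng Tmem14c (0.98), Nop53 (0.98) and Ankrd40 (0.97). For Notch3 they were Tufm (0.97), Sall1 (0.97) and Mybbp1a (0.97), and for Jag2 Chd6 (0.97), Pcdhga4 (0.96) and Sorbs2 (0.96). Notch2 ran with Lama2 (0.96), Dnm2 (0.94) and Fam3c (0.94), and Notch1 with Slc23a4 (0.93), Vps13a (0.92) and Trrap (0.89). Dll1 ran with Mak16 (0.96), Coasy (0.95) and Psmd11 (0.95), and Dll3 with Lsm14a (0.98), Ruvbl1 (0.98) and Spsb2 (0.98). Dll4 ran with Ctnnbip1 (0.94), Washc1 (0.92) and Glce (0.91). The libraries share the genotype groups, and with 14029 genes to choose from high values are found for any pattern.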
